A study of Homo sapiens with 6 samples.

Results

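The cytochrome P450 genes are described here as they were counted in SH-SY5Y, a human cell line derived from a neuroblastoma, a tumour of the sympathetic nervous system. Members were the genes of the count table whose symbol is CYP followed by a family number, a subfamily letter and a gene number, together with POR, which encodes the reductase that supplies P450 enzymes with electrons. The rule found 57 symbols. CYP2D7, which GENCODE annotates as a pseudogene, was left out, so 56 of the 60710 genes in the table were members: 55 P450 genes and POR. The 55 P450 genes were sorted into 5 classes by their best known substrates, namely 18 drug and xenobiotic enzymes, 13 sterol, steroid and bile acid enzymes, 7 vitamin A and D enzymes, 12 fatty acid and eicosanoid enzymes and 5 orphans, whose main substrate is not settled.

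The labels describe 3 control samples, which received 10 uL of DMSO per well, and 3 samples given the Nrf2-peptide-linked fumarate in water plus the same DMSO. All cells were grown to 80% confluence in medium with serum and lysed after 5 h. For the peptide, 2 mg went into 600 uL of water and 200 uL of this was added to a well that held 2 mL of medium. No addition of water alone to the control wells is described. The labels carry the numbers 4, 5 and 6 for the controls and 13, 14 and 15 for the treated samples, while the columns of the table are numbered 1 to 6. Columns 4, 5 and 6 were therefore read as control replicates 1, 2 and 3, and columns 1, 2 and 3 were not used. No treated sample was analysed here, and no effect of the treatment is given. If the column numbers were counted afresh, the libraries called controls here could be treated ones, a point that the labels and the header leave unsettled. Nothing in the labels says that the 3 controls were separate cultures rather than wells plated together, so the spread between them may be technical.

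The libraries held 8887854 to 11397407 counts. Replicate 3 had the fewest counts and the highest mitochondrial share, 6.25% against 4.11% and 3.83% in replicates 1 and 2. Of the 8 noradrenergic neuroblastoma markers, 7 had at least 10 counts in every library, and their summed level was 2378 to 2692 CPM (the reads of a gene scaled to a library size common to all). TH, the tyrosine hydroxylase gene and a defining marker of noradrenergic cells, had 0 counts in each library. None of the 7 hepatocyte markers (0.525 to 1.13 CPM in sum, with FGA at 0) and none of the 6 adrenal cortex markers (0.525 to 0.655 CPM in sum, with MC2R, HSD3B2, CYP11B1 and CYP17A1 at 0) reached that limit. Both tissues are major sites of P450 expression, and the markers CYP11B1 and CYP17A1 are themselves members described here. Of the 7 mesenchymal neuroblastoma markers, 5 reached the limit (498 to 573 CPM in sum, with PRRX1 and TWIST2 at 0), as did 1 of 5 blood markers, CD14 (the list summed to 1.58 to 2.43 CPM, with HBB and HBA1 at 0).

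P450 enzymes hold a heme group with which they insert an oxygen atom into their substrate. Most sit in the endoplasmic reticulum and receive electrons from POR, while a smaller group sits in mitochondria and receives them from ferredoxin (FDX1) and ferredoxin reductase (FDXR). The liver enzymes that clear drugs are the best known, but other members make steroid hormones and cholesterol, activate and break down vitamins A and D, or oxidise fatty acids in many tissues.

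Few P450 genes were expressed in these cells. At least 10 counts in every library, called detected below, were recorded for 11 of 55 P450 genes, and POR also reached this limit. The share of detected P450 genes was 20%, against 62.2% of the protein-coding genes of GENCODE 29 and 22.9% of all genes in the table. A further 27 P450 genes had at least 1 count in some library, and 17 had 0 counts in each. Of the 19913 protein-coding genes, 3885 had 0 counts in each library. Given counting error alone, a gene at 0 could still have a level of up to 3 counts (0.263 to 0.339 CPM across the libraries). In RNA from bulk cells, few expressing cells and little RNA per cell cannot be told apart. The 11 detected genes took 95.4%, 93.9% and 95.2% of all P450 counts in replicates 1, 2 and 3. All 55 genes together had 1552, 1642 and 1368 counts, which was 0.0145%, 0.0144% and 0.0154% of the library.

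**Figure D1:**
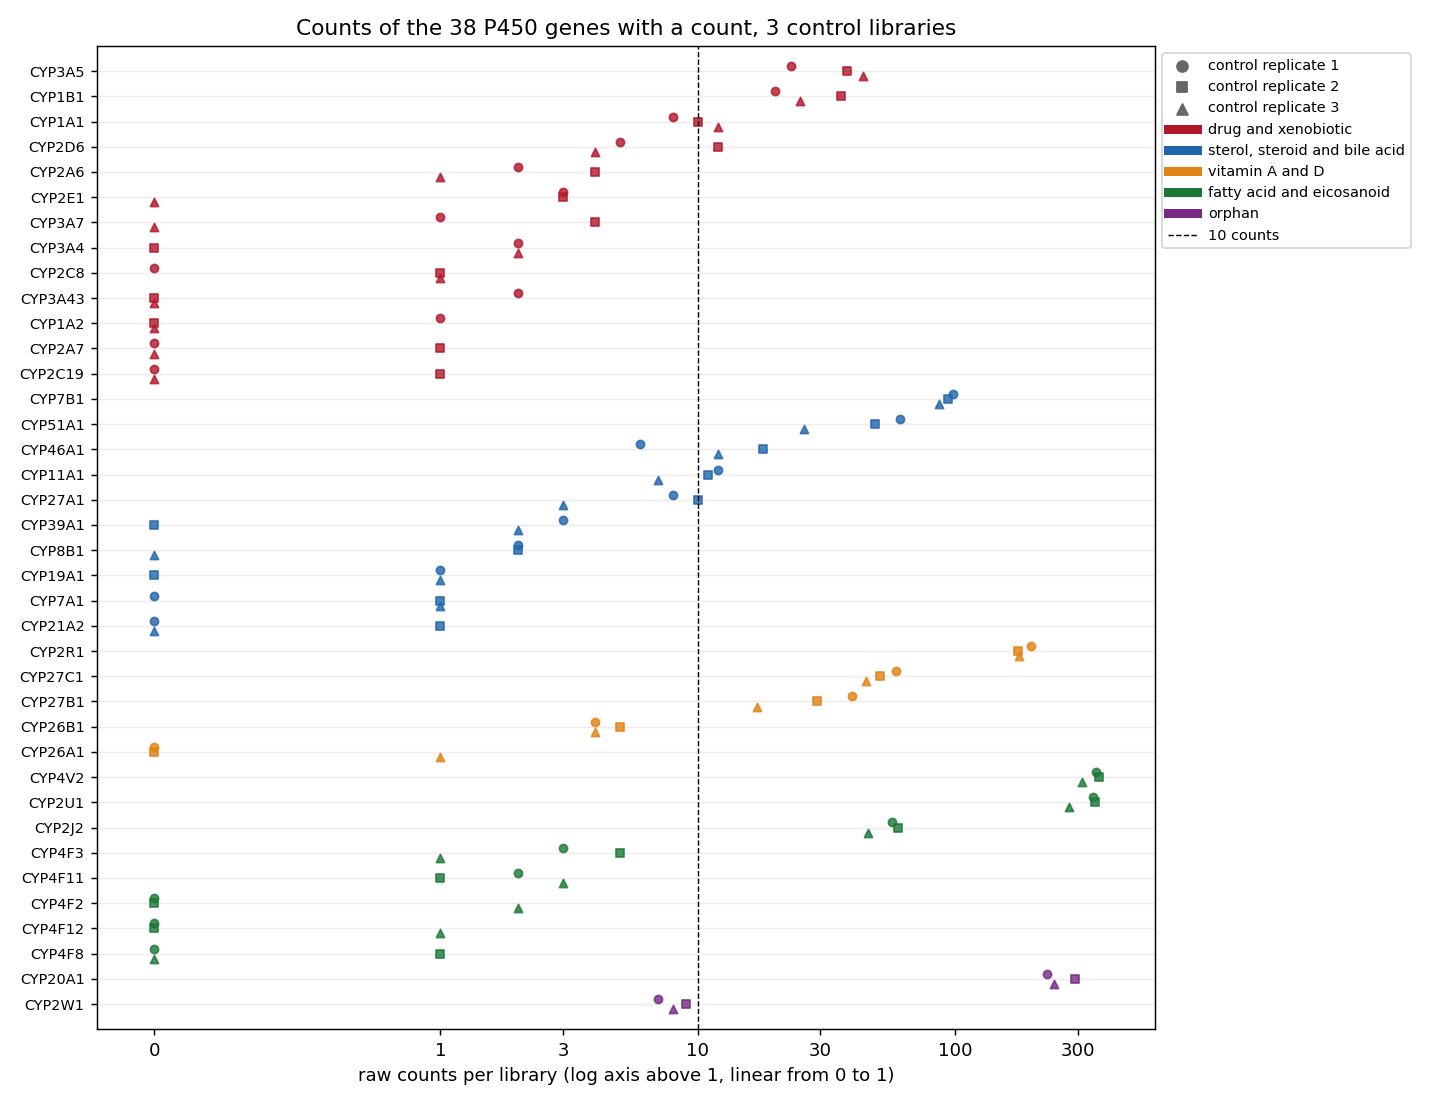
Raw counts of the 38 P450 genes with a count in any library (rows, grouped and coloured by substrate class) in each of the 3 control libraries (marker shapes), on an axis that is logarithmic above 1 and linear from 0 to 1, with a dashed line at 10 counts. The 11 detected genes lie to the right of the line in every library, and the 17 genes at 0 in all 3 are not drawn.

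By class, 2 of 18 drug and xenobiotic genes were detected, 2 of 13 sterol, steroid and bile acid genes, 3 of 7 vitamin A and D genes, 3 of 12 fatty acid and eicosanoid genes and 1 of 5 orphans. Of the 48 P450s of the endoplasmic reticulum 9 were detected, and of the 7 mitochondrial P450s 2 were. Just inside the limit stood CYP27B1 with 40, 29 and 17 counts and CYP1B1 with 20, 36 and 25. Just outside it, with at least 10 counts in some library but not in all, stood CYP46A1 with 6, 18 and 12 counts, CYP11A1 with 12, 11 and 7, CYP1A1 with 8, 10 and 12, CYP2D6 with 5, 12 and 4, and CYP27A1, the mitochondrial sterol hydroxylase of bile acid synthesis, with 8, 10 and 3.

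Detected and undetected P450 genes are first set side by side by their promoter sequences. RefSeq promoters on GRCh38.p14 were found for 39 of the 56 members, 8 of them detected, and the 250 bases upstream of the start were read. For 7 genes with several starts, the start richest in CpG was taken. Below are the promoters of 3 P450 genes with the most counts in the table, CYP2U1 (chr4:107931299-107931548, plus strand), CYP20A1 (chr2:203238768-203239017, plus strand) and CYP4V2 (chr4:186191317-186191566, plus strand), followed by those of CYP3A5 (chr7:99679997-99680246, minus strand), a detected drug enzyme gene, and of CYP3A4 (chr7:99784185-99784434, minus strand) and CYP2C8 (chr10:95069498-95069747, minus strand), 2 liver drug enzyme genes with at most 2 counts in any library. They were chosen after their values were seen. Each is written 5′ to 3′ on the strand of the gene, and capitals mark every CG and every TATAAA.
CYP2U1: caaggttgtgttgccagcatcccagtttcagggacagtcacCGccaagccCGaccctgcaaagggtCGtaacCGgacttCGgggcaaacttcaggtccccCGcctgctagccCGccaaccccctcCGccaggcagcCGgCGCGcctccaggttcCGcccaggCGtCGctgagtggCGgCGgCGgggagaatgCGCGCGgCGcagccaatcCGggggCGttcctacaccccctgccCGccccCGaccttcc
CYP20A1: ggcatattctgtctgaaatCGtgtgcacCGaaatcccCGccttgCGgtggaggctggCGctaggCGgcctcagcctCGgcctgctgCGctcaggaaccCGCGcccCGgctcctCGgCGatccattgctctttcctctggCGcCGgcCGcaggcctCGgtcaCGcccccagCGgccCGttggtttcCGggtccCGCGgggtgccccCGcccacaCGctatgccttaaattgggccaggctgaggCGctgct
CYP4V2: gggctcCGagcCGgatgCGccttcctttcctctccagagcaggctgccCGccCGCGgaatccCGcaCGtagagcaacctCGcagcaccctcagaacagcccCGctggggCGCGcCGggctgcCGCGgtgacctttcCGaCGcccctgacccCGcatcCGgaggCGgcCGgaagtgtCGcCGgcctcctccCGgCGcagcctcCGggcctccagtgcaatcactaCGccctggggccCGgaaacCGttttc
CYP3A5: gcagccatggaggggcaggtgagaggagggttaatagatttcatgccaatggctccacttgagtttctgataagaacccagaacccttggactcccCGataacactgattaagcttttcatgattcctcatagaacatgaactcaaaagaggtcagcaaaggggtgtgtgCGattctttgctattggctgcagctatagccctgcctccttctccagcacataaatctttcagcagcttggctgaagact
CYP3A4: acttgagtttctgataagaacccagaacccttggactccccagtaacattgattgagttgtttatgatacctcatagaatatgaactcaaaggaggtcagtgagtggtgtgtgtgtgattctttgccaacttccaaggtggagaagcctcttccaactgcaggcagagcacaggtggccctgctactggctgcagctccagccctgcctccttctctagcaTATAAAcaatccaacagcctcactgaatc
CYP2C8: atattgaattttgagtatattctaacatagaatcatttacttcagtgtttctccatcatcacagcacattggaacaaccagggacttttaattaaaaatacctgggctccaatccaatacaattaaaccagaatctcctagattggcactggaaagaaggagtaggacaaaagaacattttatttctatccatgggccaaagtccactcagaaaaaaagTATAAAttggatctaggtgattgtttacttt
CYP2U1, CYP20A1 and CYP4V2 carried 25, 26 and 29 CG pairs in these windows and no TATAAA. CYP3A4 and CYP2C8 carried no CG pair, and each had a TATAAA, whose first base lay 29 bases upstream of the start in CYP3A4 and 31 bases upstream in CYP2C8. CYP3A5 had 2 CG pairs and no TATAAA.

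Across the matched genes the observed to expected ratio of CG pairs had a median of 0.801 in the 8 detected genes and of 0.198 in the 31 others. The median of all 35116 promoters of the table was 0.558. That set counts every start of a gene, while 1 start per P450 gene was taken, so the 2 were not chosen alike. A ratio above 0.6 was found in 6 of 8 detected genes, in 8 of 31 others and in 47.5% of all promoters. Among detected genes CYP3A5 (0.141) and CYP27C1 (0.552) lay below it. Taking the start poorest in CpG gave 5 of 8 and 6 of 31. CYP26C1, CYP2S1, CYP4F22 and CYP4X1 had ratios from 0.684 to 0.994 and yet 0 counts in every library. At its other start CYP4X1 had a ratio of 0.0597. The motif TATAAA, on either strand, stood in 0 of 8 detected genes, in 16 of 31 others and in 10.7% of all promoters. The other motifs were searched on both strands. GCGTG, the core of the site bound by the dioxin receptor AHR, stood in 4 of 8, in 7 of 31 and in 32.2%, and ATCACNNCA, a form of the sterol response element, stood in 0 of 8, in 2 of 31 and in 1.93%. GCGTG holds a CG and so counts toward the CpG ratio as well. None of these differences was tested. Many of the undetected genes are close copies of each other, so their promoters are not independent.

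**Figure D2:**
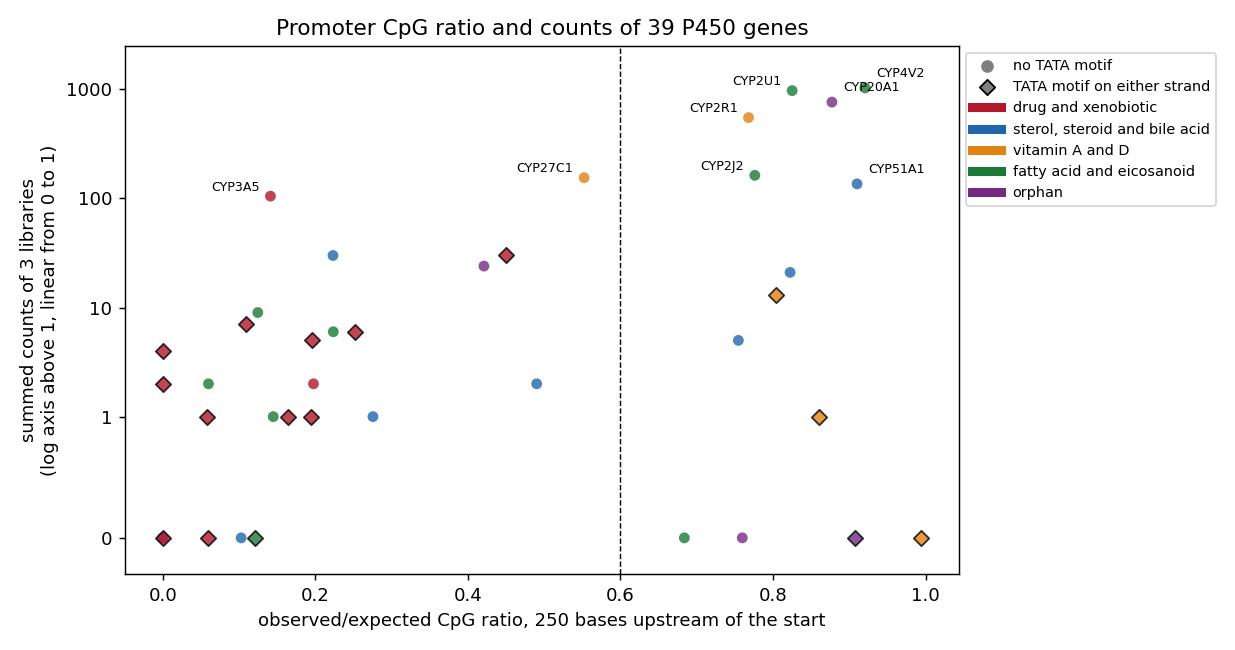
Observed to expected CpG ratio of the 250 bases upstream of the start (horizontal axis, dashed line at 0.6) against the counts summed over 3 libraries (vertical axis, logarithmic above 1 and linear from 0 to 1) for 39 P450 genes, coloured by class, with diamonds for genes with a TATA motif. The 8 detected genes are named, 6 of them to the right of the line, and the diamonds all lie at 30 counts or fewer.

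Detected genes mostly had no other P450 member near them. On GRCh38, 32 P450 genes start within 1 Mb of another P450 member, and 1 of these, CYP3A5, was detected. Of the 23 with no such member, 10 were detected, beside 62.2% of all protein-coding genes. Pseudogenes and other genes were not counted as neighbours. The 5 CYP4 genes at chr1:46757838-47149741 (CYP4B1, CYP4A11, CYP4X1, CYP4Z1 and CYP4A22) had no count at all. The 6 CYP2 genes at chr19:40843538-41207539 (CYP2A6, CYP2A7, CYP2B6, CYP2A13, CYP2F1 and CYP2S1) had 8 counts in all libraries together. The 6 CYP4F genes at chr19:15508493-15934867 had 19, of which CYP4F3 gave the highest single value of 5. In the CYP3A group at chr7:99648194-99866102, CYP3A5 held 105 of 116 counts. Genes of such groups are similar in sequence, and how the counting treated reads that match several of them is not stated.

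Levels of different genes were compared per length, as CPM divided by the kilobases of the gene's longest transcript. On this scale POR was the highest member with 44.2 ± 4.45 CPM per kb (SD, n = 3), followed by CYP20A1 with 9.41 ± 1.21, CYP2R1 with 7.73 ± 1.01, CYP2U1 with 6.36 ± 0.129, CYP7B1 with 4.12 ± 0.365 and CYP4V2 with 3.86 ± 0.194 CPM per kb. These 5 P450 genes carried 75.2%, 74.9% and 78.1% of the summed P450 level per kb in replicates 1, 2 and 3. CYP2J2 (2.06 ± 0.0267), CYP51A1 (1.34 ± 0.431), CYP27C1 (1.14 ± 0.120), CYP27B1 (1.08 ± 0.365), CYP3A5 (1.05 ± 0.426) and CYP1B1 (0.498 ± 0.127 CPM per kb) were lower. Of the 11 pairs of neighbours in this order, 5 had ranges over the libraries that overlapped and so did not differ beyond their spread: CYP20A1 and CYP2R1, CYP7B1 and CYP4V2, and the steps from CYP51A1 through CYP27C1 and CYP27B1 to CYP3A5. The length used matters for some. With the length of all annotated exons merged, CYP2R1 fell to 3.98 CPM per kb, below CYP2U1 with 5.16, CYP3A5 to 0.515 and POR to 18.3, while every other detected P450 gene kept its rank.

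**Figure D3:**
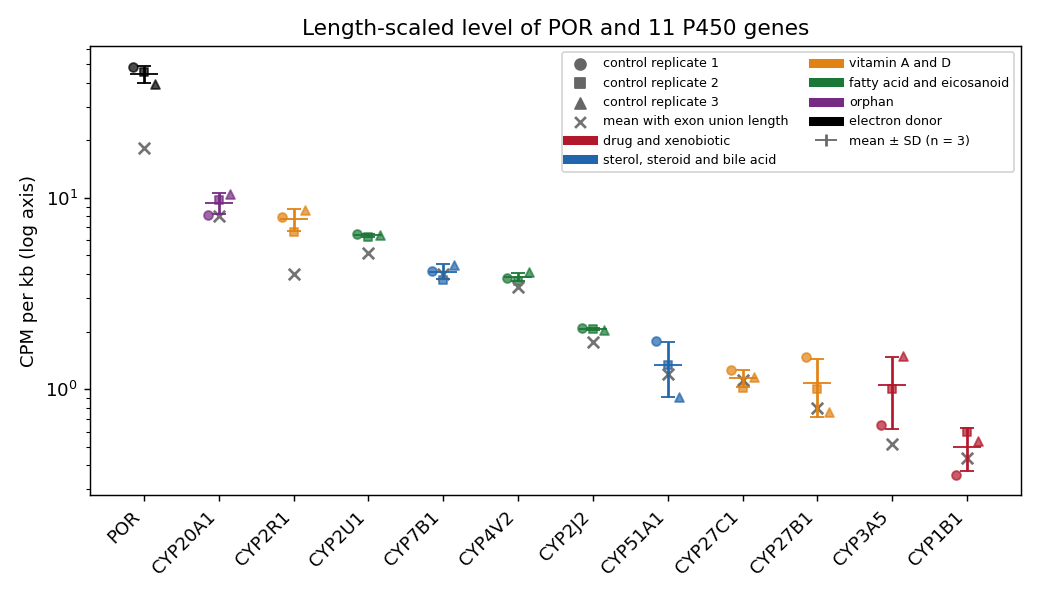
Level per length (CPM per kb, logarithmic axis) of POR and the 11 detected P450 genes in each control library, with mean and SD (n = 3). Crosses give the mean when the merged exon length replaces the longest transcript. POR lies above every P450 gene with either length.

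POR (ENSG00000127948.16, chr7:75899200-75986855, plus strand) had 1301, 1311 and 882 counts, which gave 122, 115 and 99.6 CPM. Replicate 3 was the lowest. The mean was 112 ± 11.3 CPM, a coefficient of variation of 10.1% against counting errors of 2.76 to 3.37%. The longest POR transcript has 61.3% GC, and replicate 3 was lower than the others over the 4049 detected nuclear genes above 55% GC, by a median log2 difference of -0.18. With the GC trend between libraries removed, POR had 114, 111 and 109 CPM and its SD fell from 11.3 to 2.20 CPM. The part of the depth and mitochondrial share of replicate 3 in this and the other values lowest there was not tested.

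Set against the summed level of the P450s of the endoplasmic reticulum, 38.4 ± 2.26 CPM per kb, POR was 1.30, 1.22 and 0.959 times as high in replicates 1, 2 and 3, a mean ratio of 1.16 ± 0.177. With merged exon lengths the mean ratio was 0.612, so the data do not settle whether POR transcripts outnumber those of its P450 partners. The 7 mitochondrial P450 genes summed to 2.95 ± 0.579 CPM per kb. Their donors were higher, with FDXR at 14.2 ± 0.760 CPM per kb and FDX1 at 5.63 ± 0.304, which were 4.96 ± 1.04 and 1.94 ± 0.277 times the mitochondrial P450 sum.

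Of the 8 other redox partners listed, 7 were detected, beside 62.2% of all protein-coding genes. CYB5R3, which encodes cytochrome b5 reductase, had 96.2 ± 4.66 CPM. The cytochrome b5 genes CYB5A and CYB5B had 28.6 ± 3.86 and 70.4 ± 0.282 CPM, and PGRMC1 and PGRMC2, heme-binding membrane proteins that associate with P450s, had 69.2 ± 1.27 and 47.4 ± 5.31 CPM. In GENCODE 29, 35.1% of the exon bases of CYB5B are shared with a same-strand gene, which had 0 counts. FDX2, the ferredoxin of iron-sulfur cluster assembly, had 0, 0 and 1 counts, and 70.9% of its exon bases lie in exons of other genes on the same strand. Of the 9 heme synthesis genes listed, 8 were detected, beside the same 62.2%. ALAS1, which encodes the first and rate-limiting enzyme of heme synthesis outside red blood cells, had 56.9 ± 2.14 CPM, and FECH, which encodes the last one, had 75.0 ± 2.01 CPM. The exception was ALAS2, the form of red blood cell precursors, with 2, 1 and 1 counts.

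Fatty acid and eicosanoid enzymes formed the highest class per length, 12.5 ± 0.313 CPM per kb in sum, above each of the other classes in every library. CYP4V2 (ENSG00000145476.16, chr4:186191520-186213456, plus strand), a fatty acid hydroxylase whose loss causes a crystalline dystrophy of the retina, had 353, 365 and 312 counts, or 33.0, 31.9 and 35.2 CPM. CYP2U1 (ENSG00000155016.18, chr4:107931369-107953457, plus strand), which hydroxylates arachidonic and other long-chain fatty acids and is mutated in a form of hereditary spastic paraplegia, had 343, 352 and 279 counts, or 32.1, 30.8 and 31.5 CPM. Both were steady across libraries. Their coefficients of variation of 5.03% and 2.02% were no larger than the counting error of a single library, at least 5.23% for CYP4V2 and 5.33% for CYP2U1. CYP2J2 (ENSG00000134716.11, chr1:59893308-59926790, minus strand), an epoxygenase of arachidonic acid, had 57, 60 and 46 counts, or 5.33, 5.25 and 5.19 CPM. The highest undetected member by count was CYP4F3, a leukotriene hydroxylase, with 3, 5 and 1 counts. CYP4A11, CYP4A22, CYP4B1 and CYP4F22 were at 0, and CYP4F11, CYP4F2, CYP4F12 and CYP4F8 had at most 3 counts in any library.

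Vitamin A and D enzymes summed to 10.1 ± 1.15 CPM per kb, or 5.99 with merged exon lengths. The 2 activating steps for vitamin D were both detected. CYP2R1 (ENSG00000186104.11, chr11:14877440-14892252, minus strand), the main vitamin D hydroxylase of the first step, had 198, 176 and 177 counts, or 18.5, 15.4 and 19.99 CPM. CYP27B1 (ENSG00000111012.10, chr12:57762334-57768986, minus strand), the mitochondrial enzyme that makes the hormone form, had 40, 29 and 17 counts, or 3.74, 2.54 and 1.92 CPM. CYP27B1 was lowest in replicate 3, and its longest transcript has 56.3% GC. Its coefficient of variation of 33.9% exceeded the counting errors of 15.8 to 24.3%, and it was 28.8% with the GC trend removed. The enzyme that breaks the hormone down, CYP24A1, a classical target of the vitamin D receptor, had 0 counts, and VDR, the receptor gene, had 5, 8 and 7 counts.

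CYP27C1 (ENSG00000186684.14, chr2:127184120-127220078, minus strand), which desaturates retinoids, had 59, 51 and 45 counts, or 5.52, 4.46 and 5.08 CPM. The retinoic acid hydroxylases that clear the hormone, and that retinoic acid is known to induce, were nearly silent. CYP26B1 had 4, 5 and 4 counts, CYP26A1 had 0, 0 and 1, and CYP26C1 had none. The retinoic acid receptor genes were present, with 44.6 ± 3.17 CPM for RARA, 16.4 ± 0.322 for RARB and 27.0 ± 3.03 for RARG.

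Sterol, steroid and bile acid enzymes summed to 6.53 ± 0.467 CPM per kb. The sum includes CYP51A1, most of whose exon bases are shared with another gene, as described below. The part of this overlap in the sum was not tested. CYP7B1 (ENSG00000172817.4), an oxysterol hydroxylase that is mutated in a form of hereditary spastic paraplegia, had 98, 94 and 87 counts, or 9.16, 8.23 and 9.82 CPM. Its coefficient of variation of 8.86% was below its counting errors of 10.1 to 10.7%. CYP46A1, the neuronal enzyme that converts brain cholesterol to its hydroxylated export form, had 6, 18 and 12 counts, or 1.16 ± 0.533 CPM. CYP11A1, which cleaves the side chain of cholesterol at the start of steroid synthesis, had 12, 11 and 7 counts, or 0.958 ± 0.166 CPM, and 28.96% of its exon bases overlap exons of other genes on either strand. The later steroid enzymes CYP17A1, CYP11B1 and CYP11B2 were at 0. CYP19A1, the aromatase, had 1, 0 and 1 counts and CYP21A2 had 0, 1 and 0, while the near-identical pseudogene CYP21A1P had 7, 6 and 3. CYP8B1, CYP39A1 and CYP7A1, of bile acid synthesis, had at most 3 counts in any library. Of 6 other steroid synthesis genes only SRD5A1, a steroid reductase, was detected (44.6 ± 2.65 CPM), beside 62.2% of all protein-coding genes. STAR, which delivers cholesterol to CYP11A1, had 3, 2 and 3 counts, and NR5A1, the master regulator of steroid-making cells, had 4, 4 and 2.

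CYP51A1 (ENSG00000001630.17, chr7:92112151-92134803, minus strand), the lanosterol demethylase of cholesterol synthesis, had 61, 49 and 26 counts, or 5.70, 4.29 and 2.94 CPM. Replicate 3 was the lowest. Its transcript has 41.5% GC. Over 5172 nuclear genes under 45% GC, replicate 3 was higher by a median log2 difference of 0.15. With the GC trend removed, CYP51A1 had 5.98, 4.33 and 2.77 CPM, and why replicate 3 was low was not tested. SREBF2, which encodes the activator of cholesterol synthesis genes and has 57.1% GC, had 87.8, 86.6 and 65.7 CPM. MSMO1, of the same pathway and with 38.1% GC, ran the other way, with 11.6, 13.9 and 18.2 CPM. LSS and DHCR7, also of this pathway and each with 58.3% GC, were lowest in replicate 3. LSS had 94.5, 78.9 and 72.3 CPM, and DHCR7 had 32.6, 30.2 and 28.8 CPM.

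CYP51A1 was lower per length than 3 other enzymes of cholesterol synthesis, and the rest of the pathway was not compared. At 1.34 ± 0.431 CPM per kb it stood against 16.6 for LSS, the enzyme just before it, 6.42 for MSMO1, which acts shortly after it, and 11.5 for DHCR7, all chosen after the CYP51A1 value was seen. In GENCODE 29, 79.4% of the exon bases of CYP51A1 (2844 of 3584) also belong to ENSG00000285772, a longer same-strand protein-coding gene at chr7:92112159-92179511, and that gene had 0 counts in each library. The submitters' processing notes name featureCounts, but how reads that fall in exons of more than 1 gene were handled is not stated. The part of this overlap in the low CYP51A1 value was not tested. Of the 55 P450 genes, 5 share more than 20% of their exon bases with another gene on the same strand, and CYP51A1 is the 1 among them that was detected. The others are CYP3A7 (41.7%), CYP2C18 (38.5%), CYP2C19 (37.3%) and CYP26A1 (25.2%), all with at most 4 counts.

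**Figure D4:**
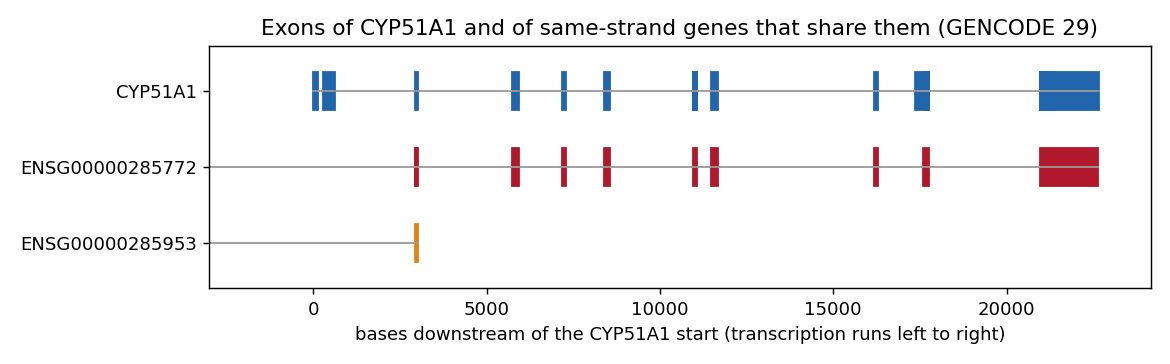
Exons (boxes) of CYP51A1 and of the 2 same-strand genes of GENCODE 29 that share them, by distance in bases from the CYP51A1 start, with introns as lines. The boxes of ENSG00000285772 coincide with those of CYP51A1 along most of the gene, and the first exons of CYP51A1 are not shared.

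Drug and xenobiotic enzymes were the lowest class, 2.58 ± 0.598 CPM per kb in sum, or 6.22 ± 1.38% of the P450 level per kb, although they make up 18 of the 55 genes. CYP3A5 (ENSG00000106258.15, chr7:99648194-99680026, minus strand), a drug oxidase found outside the liver as well as in it, had 23, 38 and 44 counts, or 2.15, 3.33 and 4.97 CPM. Its coefficient of variation, 40.7%, was the highest of the detected P450 genes, and exceeded the counting errors of 15.1 to 20.9%. CYP3A4, the major liver form, had 2, 0 and 2 counts. CYP1B1 (ENSG00000138061.12, chr2:38066973-38109902, minus strand), which oxidises estrogens and procarcinogens, had 20, 36 and 25 counts, or 1.87, 3.15 and 2.82 CPM. Its antisense gene CYP1B1-AS1 had 4, 3 and 3, and although the library kit keeps the strand, the strand setting of the counting is not stated, so the reads of the pair may be mixed. CYP1A1, the classical target of AHR, had 8, 10 and 12 counts, or 0.993 ± 0.320 CPM, and CYP1A2 had 1, 0 and 0.

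AHR itself had 0 counts in every library, and its partner ARNT had 136 ± 7.12 CPM. In GENCODE 29, 29.4% of the exon bases of AHR are shared with a same-strand gene, which also had 0 counts, and the part of this overlap was not tested. The AHR targets TIPARP and AHRR had 18.2 ± 2.68 CPM and 0, 2 and 4 counts. Regulators of drug enzymes that are known from liver had mixed levels. NR1I2, the pregnane receptor, had 2, 3 and 3 counts, NR1I3 had 7, 10 and 4, and HNF4A had none. RXRA, the partner of NR1I2 and NR1I3, had 30.05 ± 2.10 CPM, and the fatty acid receptor PPARA and the oxysterol receptor NR1H2 had 49.9 ± 1.81 and 55.2 ± 0.545 CPM. Of the 21 regulators listed, 12 were detected, close to the 62.2% of all protein-coding genes, and AHR, RXRG, NR1H4 and HNF4A were at 0. CYP2D6 had 5, 12 and 4 counts, and its near-identical neighbour CYP2D7, the excluded pseudogene, had 14, 21 and 5, so the split between them is uncertain. CYP2A13, CYP2B6, CYP2C18 and CYP2F1 were at 0, and CYP2A6, CYP2A7, CYP2C8, CYP2C19, CYP2E1, CYP3A7 and CYP3A43 had at most 4 counts in any library.

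Orphan enzymes summed to 9.74 ± 1.26 CPM per kb, nearly all of it CYP20A1 (ENSG00000119004.16, chr2:203238940-203305611, plus strand), which had 228, 292 and 244 counts, or 21.3, 25.6 and 27.6 CPM. Its coefficient of variation was 12.8% against counting errors of 5.85 to 6.62%, and 9.26% with the GC trend removed. CYP2W1, known from fetal colon and colon tumours, had 7, 9 and 8 counts. CYP2S1, CYP4X1 and CYP4Z1 were at 0. The orphan and the vitamin classes overlapped in their ranges per kb, 8.37 to 10.8 and 8.73 to 10.8, and their order is not set by these data.

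**Figure D5:**
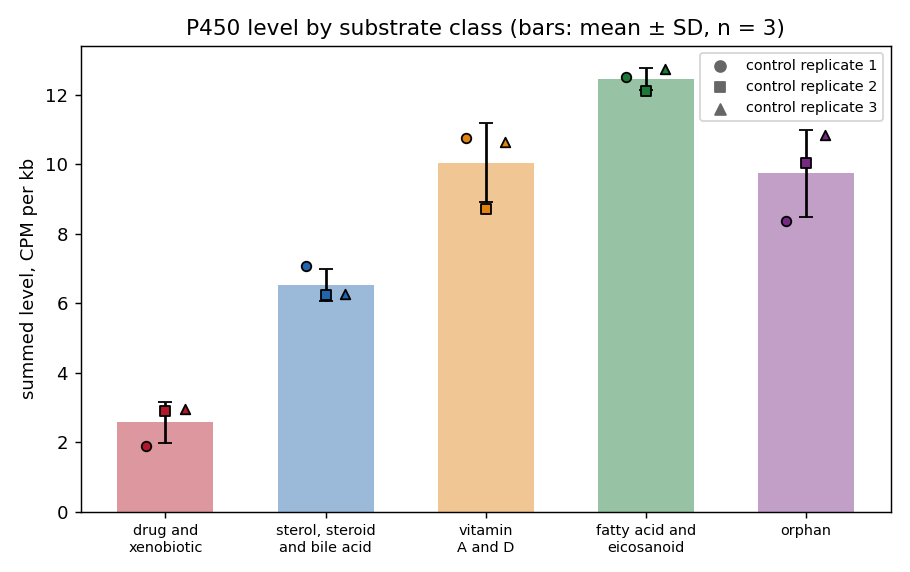
Summed level per length (CPM per kb) of the 5 substrate classes, with bars for the mean, error bars for the SD (n = 3) and points for each control library. The fatty acid and eicosanoid class is highest and the drug and xenobiotic class lowest in every library.

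Across the 11 detected P450 genes the coefficient of variation ran from 1.29% (CYP2J2) to 40.7% (CYP3A5), with a median of 12.8%, against 8.69% over all 13920 detected genes. The sets were not matched for counts, on which this spread depends, so these medians do not show P450 genes to be more variable. For CYP2J2 the counting error of a single library was 12.9 to 14.7%. Of the 9 detected members under 45% GC, 7 were higher in replicate 3 than in the mean of the others. Their median log2 difference was 0.17, close to the 0.15 over all 5172 detected nuclear genes under 45% GC. The 2 above 55% GC, POR and CYP27B1, were lower, with a median of -0.48 against -0.18 over 4049 such genes. Removing the GC trend lowered the SD of 8 of the 12 detected members and raised that of the other 4. The same count over all detected genes was not made.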

How the data were processed

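Messenger RNA was sequenced from SH-SY5Y cells. The authors deposited raw counts per Ensembl gene, whole numbers without normalization. Per the submitters' processing notes, GRCh38, fastp 0.21.1, STAR 2.7.7a and featureCounts were used. Annotation release, strand setting and the treatment of shared reads are not given in the sources used here. Of 6 sample columns, 3 matched labels by number, and 3 were not used. The table gave values for 60709 of 60710 genes. Symbols matched 60436 of them.

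Counts were scaled to CPM with TMM factors from edgeR 4.0.16 (R 4.3.3). No test was run, since 1 group had columns. Values are means ± SD over 3 libraries. Lengths, GC content, biotypes and gene coordinates came from GENCODE 29 on GRCh38, which may differ from the authors' annotation. A count of 0 was read as at most 3 counts. The GC trend was the median deviation in 50 bins over 10290 genes and was tested on simulated data. Python 3.11.15, numpy 2.4.6 and pandas 2.3.3 were used.

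Named were POR, every detected P450 gene, the highest undetected ones, most members at 0, and listed partners and regulators. Members and lists were chosen with earlier results of these data known. A few values are not reported here.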

Additional observations from a re-analysis of the deposited data

How the results depend on the processing

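The planned comparison of treated with control libraries, with its alternatives (RLE factors, no filter, DESeq2, the replicate block and each replicate left out), was not run. No paired analysis was possible because the columns of the table matched no treated sample, which leaves each control replicate without a counterpart by number. Whether replicates with the same number in both groups were set up together is not stated in the labels. The shared numbers alone do not show a paired design. The count of detected P450 genes, 11, was 11 to 13 with 1 replicate left out, which can only keep or raise it. It was 14 with a mean of at least 10 counts over the libraries. With a minimum of 5 counts in every library it was 15, and with a minimum of 1 count it was 21. Restricting sums to detected genes gave 6.10 CPM and 1.55 CPM per kb for drug enzymes and 13.4 CPM and 5.46 CPM per kb for sterol enzymes, against 8.65, 2.58, 16.6 and 6.53, which follows from dropping genes. Merged exon lengths gave 1.79 CPM per kb for drug, 10.5 for fatty acid, 8.34 for orphan, 5.92 for sterol and 5.99 for vitamin enzymes, 18.3 for POR, and a POR ratio of 0.612, which follows from longer lengths. Scaling by RLE factors or by library totals, and taking out the GC trend, moved no mean of a class sum, of POR or of a detected gene by 1 SD. These steps mostly shift level between libraries. The TMM factors were 0.996 to 1.003, and the GC trend is a deviation from each gene's own mean. They could hardly move a mean over the 3 libraries, so they are no check of it. Leaving out 1 of 3 libraries cannot move a mean by 1 SD. Counts of 3 to 18 per library limit what can be said of CYP1A1, CYP2D6, CYP11A1, CYP27A1 and CYP46A1. The merged lengths per gene were tried after the data were seen.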

Other observations

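Of the 50 P450 pseudogenes whose symbol carries the suffix P, alone or with a number after it, 2 were detected. Over all genes in the table the detected share was 22.9%. CYP4F26P (ENSG00000226562.4, chromosome 9), which GENCODE 29 lists as a long non-coding RNA gene, had 96, 84 and 83 counts, or 8.57 ± 1.07 CPM (SD, n = 3), and CYP4F29P (ENSG00000228314.1, chromosome 21) had 44, 35 and 25 counts, or 3.33 ± 0.687 CPM. None of the 6 CYP4F genes that encode enzymes had more than 5 counts in any library. Of the 50 pseudogenes, 35 had 0 counts in each library. Over the whole table, 22723 to 24301 of 60709 genes had a count in a given library, which is not the same measure as 0 counts in each. CYP4F26P and CYP4F29P were picked for their values.

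The 2 P450 genes whose symbols do not start with CYP were both detected at low levels. TBXAS1, the thromboxane synthase, had 19, 23 and 19 counts, or 1.98 ± 0.187 CPM, and PTGIS, the prostacyclin synthase, had 15, 13 and 12 counts, or 1.30 ± 0.141 CPM.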
